A study of Mus musculus with 50 samples.

Results

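Igf1, Pdgfa, Pdgfb, Vegfa, Vegfb, Hbegf, Bdnf and Grn encode secreted growth and trophic factors. They were taken as a named list: each symbol was matched to the gene symbol given beside the counts of every mouse, and each matched 1 gene, so that 8 of 53700 genes are described. The rule used no measured value, but the members were chosen with earlier results of these data known. Of the 8, 7 passed the filter on low counts (at least 1 CPM in more than 2 mice) and were tested, and Vegfa did not pass.

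The study compared male C57BL/6J mice raised under control conditions (CTR) with mice given early-life stress (ELS), in which the nest had little bedding and nesting material from postnatal day 2 (P2) to P9. Microglia were sorted from the hippocampus as DAPI- DRAQ5+ cells with intermediate CD45 and with CD11b, and their RNA was sequenced, 1 library per mouse. Adults of P200 received an i.p. injection of PBS or of 1 mg/kg LPS, a bacterial endotoxin, and were killed 3 hours later. Myelin was removed with Percoll from adult but not from P9 tissue, so that this step and age cannot be told apart. Nor can age be told apart from injection, which only adults received, or from cohort, since each age was a cohort of its own. The groups were 12 P9-CTR mice, 13 P9-ELS mice, both without injection, 7 P200-CTR-PBS mice, 6 P200-ELS-PBS mice, 7 P200-CTR-LPS mice and 5 P200-ELS-LPS mice. Mice are named by the 2 numbers of their label, written here with a hyphen. The number before it was read as that of a nest, which the labels do not state; 15 and 17 occur at both ages, and 17 with CTR mice at P9 and ELS mice at P200.

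Trophic factors are released by one cell and bind receptors on others, where they support survival, growth and maturation. Igf1 signals through Igf1r, the Pdgfa and Pdgfb chains through Pdgfra and Pdgfrb, Vegfa and Vegfb through Flt1 and, for Vegfa, Kdr, Hbegf through Egfr and Erbb4, and Bdnf through Ntrk2 and Ngfr, while progranulin, the product of Grn, is taken up by Sort1 and carried to lysosomes. Microglia of the early postnatal brain are known as a source of Igf1 for neurons and for cells that form myelin, and loss of progranulin causes neurodegeneration.

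Total counts per library ran from 5152838 to 42231258, with a median of 19960409.5, and 12482 to 21100 genes had a count in a mouse (median 18898). Levels are given as CPM (counts scaled to a common library size) after TMM scaling over the 16696 genes tested, as the mean ± SD over the mice of a group. Differences are log2 fold changes from the quasi-likelihood test of edgeR with 1 mean per group, and p-values were adjusted by Benjamini-Hochberg over all 16696 genes. A gene passed at an adjusted p under 0.05, and a stricter rule also asked for a log2 fold change above 1 in size. Counting intervals are at 95%, and a group without counts is set to a floor of 3 counts over the group for a lower bound. Neither covers the spread between mice, and the floor leaves out the counting error of the other group. Comparisons that use the same group share its mice: each PBS group serves in an age, an LPS and an early-life comparison.

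In the number of genes with a count 3 libraries stood apart. Mouse 19-3 of P9-ELS had 12482 genes and the lowest total, 5152838 counts, mouse 1-1 of P200-CTR-PBS had 12854 genes, and mouse 19-2 of P9-ELS had 15731 genes. In mouse 19-2, Igf1 (166 CPM), Pdgfa (6.18 CPM), Vegfb (15.8 CPM) and Bdnf (4.05 CPM) were the highest of its group and Grn (643 CPM) the lowest. In mouse 19-3, Grn was the highest of the group at 5769 CPM and Pdgfb the lowest at 6.09 CPM. In mouse 1-1, Pdgfa (0.662 CPM), Pdgfb (4.38 CPM) and Hbegf (0 CPM) were the lowest of the group. Without these 3 mice the number of tested members that passed was again 6, 6, 3 and 2 in the 4 comparisons with any (age in CTR, age in ELS, LPS in CTR, LPS in ELS), where 50.1%, 48.3%, 19.9% and 21.3% of all genes passed, against 44.1%, 42.2%, 14.9% and 12.3% with them. Group means without them are given with each gene.

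The microglial marker Tmem119 had a count in every mouse. It stood at 2132 ± 345 (CTR) and 2111 ± 646 CPM (ELS) at P9, at 8584 ± 574 and 9055 ± 872 CPM at P200 with PBS, and at 6722 ± 1322 and 8274 ± 2163 CPM with LPS. With age, among other microglial markers, P2ry12 (0.77 in CTR and 0.52 in ELS mice), Cx3cr1 (0.47 and 0.46) and Sall1 (0.36 and 0.64) rose, Fcrls fell (-0.39 and -0.48), and Csf1r did not pass (-0.05 and 0.25). With LPS, P2ry12 (-0.62 and -0.58) and Sall1 (-1.73 and -2.01) fell. The summed markers of each other cell type were lower, but several of them differed with age. The 6 markers of border-associated macrophages summed to 731 (CTR) and 730.1 CPM (ELS) at P9, nearly all of it Mrc1 (711 CPM in each), against 7.17, 5.40, 5.34 and 6.39 CPM in the P200 groups in the order above. The 5 markers of dividing cells, led by Top2a at P9, summed to 820 and 851 CPM at P9 and to 8.00, 11.22, 9.89 and 11.6 CPM at P200. The 8 markers of neurons, led by Camk2a at P9, summed to 162 and 112 CPM at P9 and to 11.6, 10.2, 15.6 and 13.4 CPM at P200. Fewer cells of a type and less RNA per cell cannot be told apart in these libraries.

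Astrocyte markers summed to 298, 236, 364, 392, 559 and 525 CPM in the 6 groups, with Slc1a3 the most abundant of the 7 in each and 356 of the 364 CPM in P200-CTR-PBS. With age Slc1a3 rose and the other 6 fell in each early-life condition (medians over all 7 of -4.77 in CTR and -5.01 in ELS mice). For this and the other marker lists, 44.1% (CTR) and 42.2% (ELS) of all genes passed with age. The 8 oligodendrocyte markers summed to 31.8 to 55.8 CPM over the groups (Mbp the most abundant at P9, Mag at P200, with Olig2 at 0 in both P200-CTR groups); with age 1 rose and 4 fell in CTR mice, and 1 rose and 2 fell in ELS mice. The 7 endothelial markers summed to 35.6 to 52.9 CPM, of which Pecam1 made up 28.1 of 35.6 CPM in P9-CTR and nearly all at P200 (1 rose and 3 fell with age in each early-life condition), with Ly6c1 at 0 in all P200 groups and Cldn5 at 0 in both P200-ELS groups. The 5 pericyte markers summed to 9.33 and 5.67 CPM at P9, led by Rgs5, and to at most 0.414 CPM at P200. The 8 monocyte and neutrophil markers summed to 4.03 to 7.04 CPM, led by Plac8 or Ccr2, with Ly6g at 0 in all 6 groups. With LPS, where 14.9% (CTR) and 12.3% (ELS) of all genes passed, 1 of the 7 astrocyte markers rose in CTR and 2 in ELS mice. In CTR mice 1 endothelial marker and 1 marker of border-associated macrophages also rose with LPS. Between ELS and CTR mice given PBS, where 0.168% of all genes passed, 1 astrocyte marker was lower in ELS mice.

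A list of 11 early response genes that also answer to cell isolation, led by Jun at P9 and Junb at P200, summed to 213, 204, 427 and 532 CPM in the uninjected and PBS groups and to 5750 CPM in P200-CTR-LPS and 7695 CPM in P200-ELS-LPS, with Fosb at 0 in 5 of the groups. A list of 10 immune genes known to answer to LPS summed to 183, 188, 428 and 348 CPM without LPS, and to 5350 CPM in P200-CTR-LPS and 6379 CPM in P200-ELS-LPS. Both sums were higher with LPS in each early-life condition. In CTR mice 7 of the 9 tested early response genes and 8 of the 9 tested immune genes rose, where 14.9% of all genes passed. In ELS mice 6 and 8 rose, where 12.3% of all genes passed. Both lists also moved with age, where 44.1% (CTR) and 42.2% (ELS) of all genes passed. Of the early response genes 5 rose in CTR and 7 in ELS mice, and 0 fell. Of the immune genes 4 rose and 0 fell in CTR mice, and 3 rose and 2 fell in ELS mice.

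**Figure D1:**
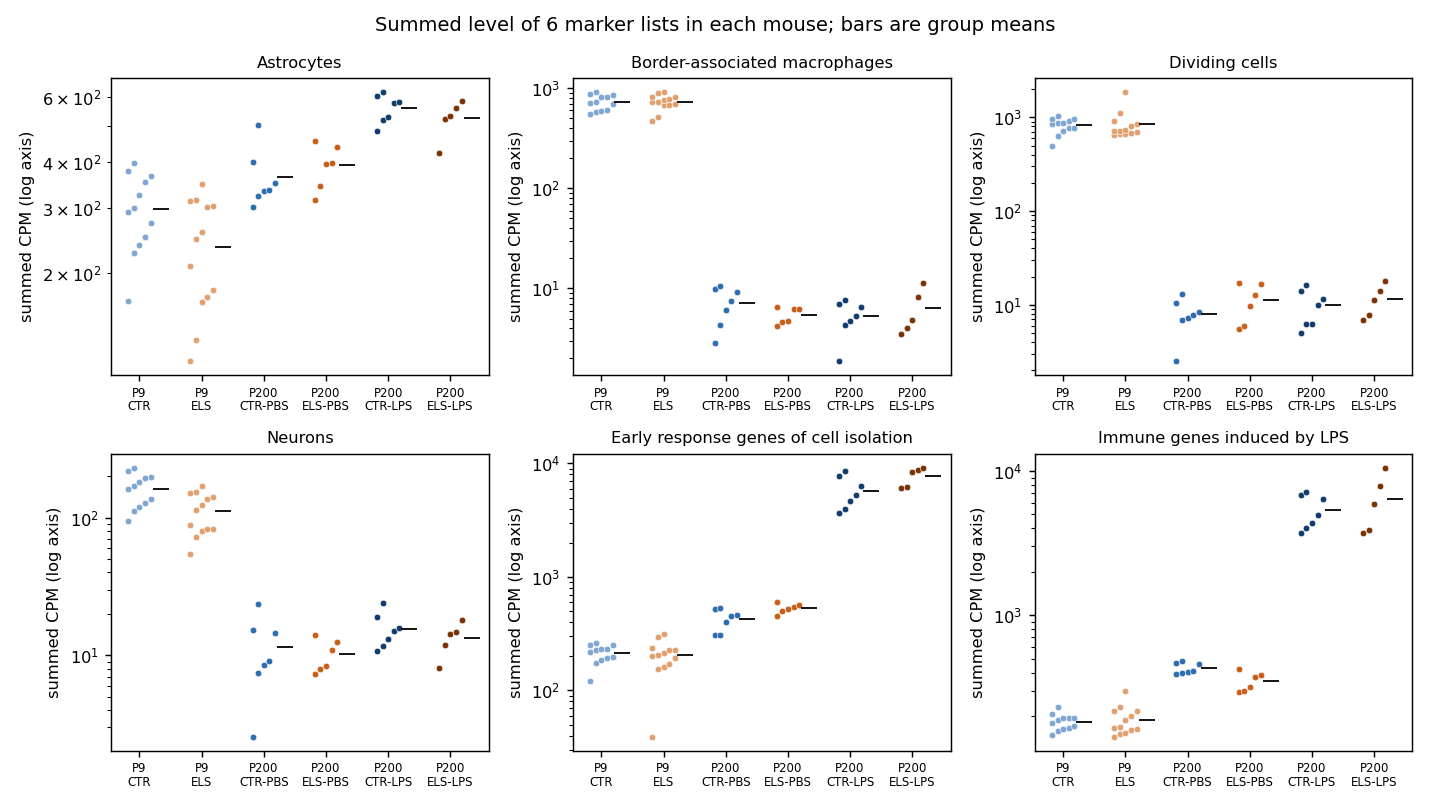
Summed CPM of each marker list (vertical axis) in each mouse, by group, with bars at the group means. Markers of border-associated macrophages and of dividing cells are high in all P9 mice (means 731 and 820 CPM in P9-CTR) and low at P200, and the early response and LPS lists are high in the LPS groups.

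Per length, the 8 genes spanned several orders of magnitude within each group. Grn stood at 844 CPM per kb of exon in P9-CTR, 936 in P9-ELS, 592 in P200-CTR-PBS, 624.7 in P200-ELS-PBS, 597 in P200-CTR-LPS and 705 in P200-ELS-LPS, which was 96.4% to 98.6% of the sum over the 8. The gene in second place changed with age. At P9 it was Igf1, with 5.80 CPM per kb in CTR and 6.94 in ELS, ahead of Pdgfb with 3.39 and 3.22. At P200 it was Pdgfb, with 8.68, 7.21, 15.18 and 15.0 CPM per kb in the 4 groups, while Igf1 stood at 0.0222, 0.0132, 0.00257 and 0.0249. In the LPS groups Hbegf followed, with 4.21 and 5.29 CPM per kb. Vegfa and Bdnf had few or no counts in most mice.

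**Figure D2:**
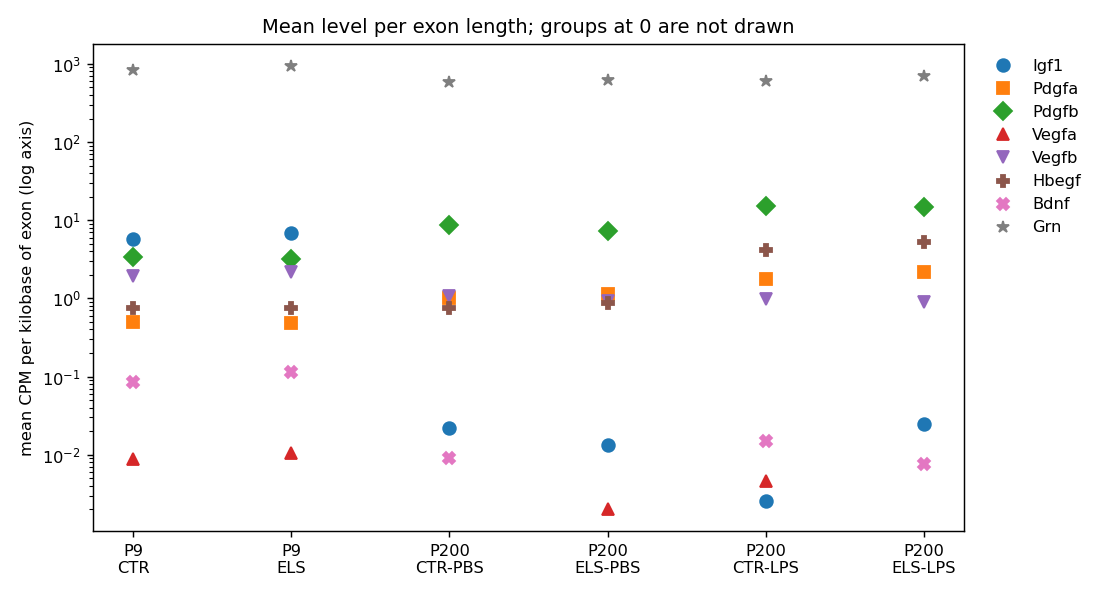
Mean level of each gene per length (CPM per kb of exon, log axis) in each of the 6 groups. Grn is the highest everywhere, Igf1 drops from the second place at P9 to below 0.03 at P200, and Hbegf is higher in the LPS groups.

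Whether early-life stress altered the 8 genes was asked at P9, at P200 after PBS and at P200 after LPS. At P9, 0 of the 7 tested members passed by edgeR's quasi-likelihood test, where 0% of all tested genes passed, and 0 met the stricter rule (0% of all). Before adjustment 0 members had p under 0.05 (914 of all genes did), and DESeq2, limma voom and edgeR's likelihood-ratio test also passed 0 members. The log2 fold changes lay between -0.07 for Pdgfb and 0.39 for Bdnf, with a median of 0.15 against 0.00 over all genes. At P200 after PBS, 0 of 7 passed where 0.168% of all genes did, and 0 met the stricter rule (0.156% of all). Only Bdnf had an unadjusted p under 0.05 (0.0232, adjusted 0.387), the other tools passed 0 members, and the median was -0.21 against 0.01.

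After LPS, 0 of 7 members differed between ELS and CTR mice by the quasi-likelihood test, where 0% of all genes passed either rule. For Igf1 p was 0.00230 before adjustment and 0.707 after. DESeq2 and limma passed 0 members and the likelihood-ratio test passed 1, Igf1 (adjusted p 0.0488, against a range of 0.0488 to 1.00 over the alternatives tried), where that test passed 0.0599% of all genes. The median log2 fold change was 0.24 against -0.01 over all genes. The interaction of age with early-life condition passed for 0 of 7 members by edgeR (0.0299% of all genes passed under each rule), with 1 at an unadjusted p under 0.05 (Bdnf, resting on mouse 5-1 of P200-CTR-PBS) and 0 by DESeq2, limma and the likelihood-ratio test. The interaction of LPS with early-life condition passed for 0 of 7 (0% of all genes under each rule), with 1 at an unadjusted p under 0.05 (Igf1), 0 by DESeq2 and limma and 1 (Igf1) by the likelihood-ratio test, which passed 0.395% of all genes. A p that misses the threshold does not show that the groups were alike.

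Age was compared between uninjected P9 mice and P200 mice given PBS. In CTR mice 6 of the 7 tested members passed, where 44.1% of all genes did: Pdgfa and Pdgfb were higher at P200, and Igf1, Vegfb, Bdnf and Grn lower. The stricter rule was met by 4 of 7 against 26.4% of all genes. In ELS mice 6 of 7 passed, in the same directions, where 42.2% of all genes did, and 5 met the stricter rule against 26.2% of all. The median log2 fold change of the members was -0.51 in CTR and -0.58 in ELS mice, against -0.09 and -0.01 over all genes. Leaving out 1 mouse at a time gave counts of 4 to 6 in CTR mice and of 5 to 6 in ELS mice, and the mice behind each lower count are named with Bdnf and Grn.

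LPS was compared with PBS at P200. In CTR mice 3 of 7 members passed, where 14.9% of all genes did: Hbegf and Pdgfb rose and Igf1 fell, and 2 met the stricter rule against 9.62% of all genes. The CTR count was 1 (Hbegf, where 17.4% of all genes passed) with only the groups compared, a fit in which Igf1 was below the filter and not tested. It was also 1 (Hbegf, where 13.0% of all genes passed) with counts summed per nest. In ELS mice 2 of 7 passed, Hbegf and Pdgfb, where 12.3% of all genes did, and both met the stricter rule against 7.86% of all. The median log2 fold change of the members was 0.66 in CTR and 0.91 in ELS mice, against 0.00 and -0.04 over all genes. The CTR median is the value of Bdnf, which rests on 12 and 17 counts and was 4.41 without mouse 5-1 of P200-CTR-PBS and -0.91 without mouse 15-2 of P200-CTR-LPS.

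**Figure D3:**
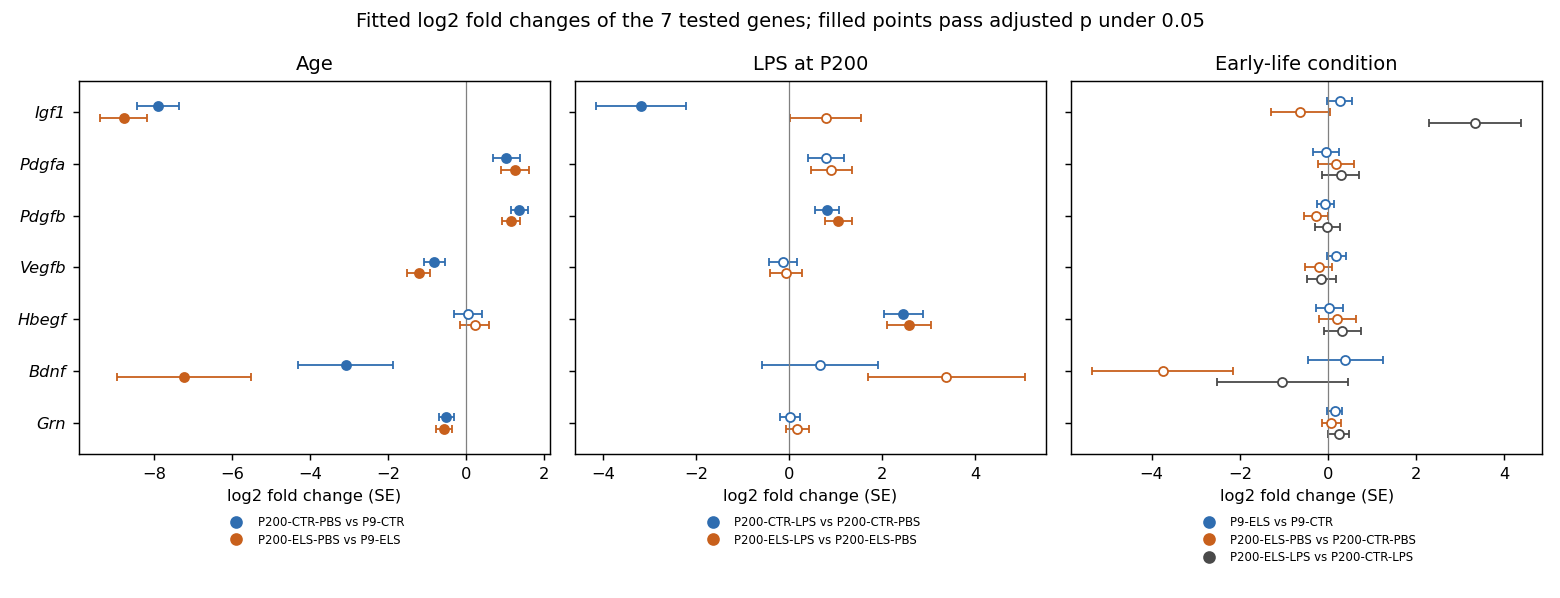
Log2 fold change with its SE (horizontal axis) of each tested member in the comparisons of early-life condition, age and LPS; filled points passed at an adjusted p under 0.05. The fitted values of Bdnf that use P200-ELS-PBS mice are against a group with 0 counts and are no bounds; Hbegf passed with LPS in both early-life conditions (2.46 and 2.58).

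Igf1 (ENSMUSG00000020053, chromosome 10, 87693642 to 87772904 on the plus strand of GRCm39) encodes insulin-like growth factor 1. Its promoter, 250 bases before to 50 after the start, is shown because Igf1 had the largest difference with age among the members. The promoter is RefSeq sequence of GRCm38.p6 at chr10:87860861-87861160, plus strand. Capitals mark TGAATCA at bases 214 to 220, a match to the pattern TGANTCA searched for AP-1, with N any base.
Igf1 promoter: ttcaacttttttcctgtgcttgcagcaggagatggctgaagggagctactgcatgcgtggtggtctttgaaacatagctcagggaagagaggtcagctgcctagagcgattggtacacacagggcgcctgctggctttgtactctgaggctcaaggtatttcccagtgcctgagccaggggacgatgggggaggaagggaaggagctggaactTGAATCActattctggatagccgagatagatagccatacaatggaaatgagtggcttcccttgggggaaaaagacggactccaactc
That motif, read on both strands, lies in 7.81% of the 32851 promoters of the table, and a match is no evidence of binding.

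In P9-CTR mice Igf1 stood at 59.3 ± 11.5 CPM (n = 12), with a lowest value of 44.4, a median of 58.3 and a highest of 86.5. P9-ELS mice had 71.0 ± 34.2 CPM (n = 13), from 31.5 over 63.4 to 166, and 64.3 CPM without mice 19-2 and 19-3. The ELS values enclosed the CTR values, and the mouse at 166 CPM was 19-2, with its few genes. At P200 nearly all of the signal was gone: P200-CTR-PBS mice had 0.227 ± 0.260 CPM (n = 7), from 0 over 0.142 to 0.740, in 38 counts over the group (0.265 CPM without mouse 1-1). P200-ELS-PBS mice had 0.135 ± 0.257 CPM (n = 6), from 0 over 0 to 0.641, in 24 counts. Every P9 mouse was above every P200 mouse, and 2 of 7 CTR and 4 of 6 ELS mice at PBS had no count. The difference with age was -7.89 (SE 0.54, adjusted p 2.82e-17) in CTR and -8.78 (SE 0.60, adjusted p 3.82e-17) in ELS mice, and was -8.58 without mouse 5-2 of P200-CTR-PBS and -10.36 without mouse 4-1 of P200-ELS-PBS. As a ratio of pooled CPM, Igf1 was 228 times higher at P9 in CTR mice (counting interval 166 to 323) and 419 times higher in ELS mice (282 to 655).

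After LPS, P200-CTR-LPS mice held 3 Igf1 counts over the group, 0.0263 ± 0.0464 CPM (n = 7), from 0 over 0 to 0.113, with 5 mice at 0. The 5 P200-ELS-LPS mice had 0, 0.0722, 0.247, 0.351 and 0.604 CPM, 22 counts in all and a mean of 0.255 ± 0.240 CPM. Of the ELS mice, 3 of 5 lay above every CTR mouse given LPS. The fall with LPS in CTR mice was -3.19 (SE 0.96, adjusted p 0.0167), a ratio of pooled CPM of 0.0836 (0.0165 to 0.263). It did not pass by limma with the nest as random effect (-1.85, adjusted p 0.313) or with counts summed per nest (-3.21, adjusted p 0.0523; 0.000262 to 0.313 over the alternatives). It also missed the threshold without mouse 1-3 of P200-CTR-LPS (-2.83, adjusted p 0.0528) or mouse 5-2 of P200-CTR-PBS (-2.50, adjusted p 0.0994), and was -4.16 without mouse 8-2 of P200-CTR-LPS. In ELS mice the difference was 0.78 (SE 0.75, adjusted p 0.576), 2.36 (adjusted p 0.0694) without mouse 4-1 of P200-ELS-PBS and 0.19 (adjusted p 0.942) without mouse 17-3 of P200-ELS-LPS. The interaction was 3.97 (SE 1.24, p 0.00245, adjusted p 0.384; 0.0219 by the likelihood-ratio test, in a range of 0.0219 to 0.776 over the alternatives). It was 3.28 without mouse 5-2 of P200-CTR-PBS, 3.38 without mouse 17-3 of P200-ELS-LPS, 4.94 without mouse 8-2 of P200-CTR-LPS and 5.55 without mouse 4-1 of P200-ELS-PBS, with adjusted p of 0.168 to 0.685.

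Between ELS and CTR mice given LPS, Igf1 differed by 3.34 (SE 1.04, adjusted p 0.707), 13.1 times in pooled CPM with an interval of 3.95 to 68.6, on 22 against 3 counts. This value was 4.31 without mouse 8-2 of P200-CTR-LPS and 2.75 without mouse 17-3 of P200-ELS-LPS. In order, both P9 groups led and did not differ beyond their spread, followed by P200-ELS-LPS, P200-CTR-PBS, P200-ELS-PBS and P200-CTR-LPS, of which no neighbours differed beyond their spread.

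**Figure D4:**
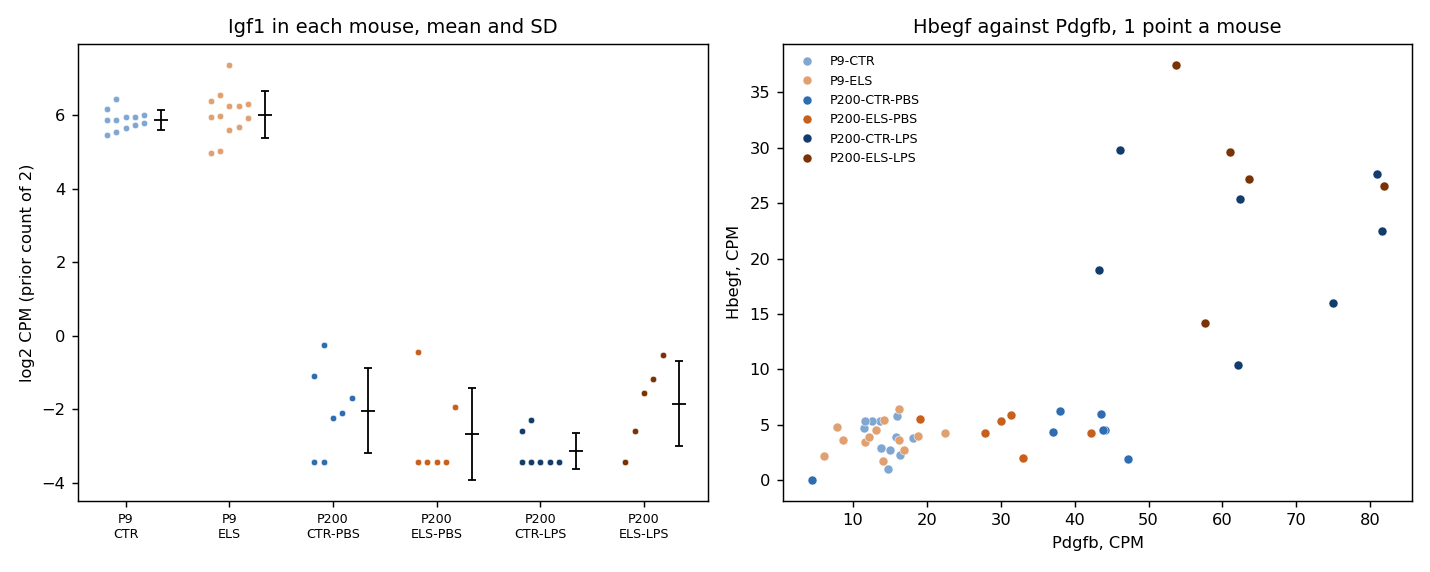
Left, log2 CPM of Igf1 (prior count of 2) in each mouse by group, with mean and SD: all P9 mice lie above all P200 mice. Right, Hbegf against Pdgfb in CPM, 1 point a mouse, colored by group: mice given LPS had 10.4 CPM of Hbegf or more, and no other mouse reached 10 CPM.

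Over the 50 mice and 11053 genes of adequate level, the log2 CPM of Igf1 was most like that of Mrc1 (Pearson r 0.976), Lpl (0.974) and Rrm1 (0.972). These values follow the age groups, since the mice fall into P9 and P200 clusters. With the group means removed, the most like was Shcbp1 (0.568). Mrc1 is the most abundant of the border-associated macrophage markers, which fell with age in 6 of 6 genes in CTR and 5 of 6 in ELS mice, and the 5 markers of dividing cells fell in both; their part in the difference of Igf1 was not tested.

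Of 12 other genes of the IGF axis 10 were tested. With age, 2 rose and 6 fell in CTR mice and 2 rose and 4 fell in ELS mice, with medians of -2.17 and -0.97 against -0.09 and -0.01 over all genes. For this and each later list, 44.1% (CTR) and 42.2% (ELS) of all genes passed with age, and 14.9% and 12.3% with LPS. The receptor Igf1r stood at 29.7 ± 4.43, 32.2 ± 11.06, 20.5 ± 9.55, 27.0 ± 4.36, 24.9 ± 4.17 and 26.3 ± 6.60 CPM in the 6 groups, from P9-CTR to P200-ELS-LPS. It was lower at P200 in CTR mice (-0.54, SE 0.21, adjusted p 0.0375) but not in ELS mice (-0.25, adjusted p 0.373; interaction 0.28, adjusted p 0.807). The CTR value missed the threshold in 5 of 9 alternatives and, at adjusted p of 0.0502 to 0.1105, without any one of P9-CTR mice 15-1, 17-1, 17-2, 17-3, 51-1, 52-2 and 58-1 and P200-CTR-PBS mice 1-1, 5-1, 15-1 and 18-2 (-0.36 without mouse 1-1). The binding protein Igfbp4 fell from 176 ± 44.0 to 10.8 ± 4.57 CPM in CTR mice (-4.02, SE 0.35, adjusted p 1.12e-13) and likewise in ELS mice (-3.79, SE 0.37, adjusted p 3.63e-12). Igfbp2 had 1.98 CPM (CTR) and 1.75 CPM (ELS) at P9 and no count in either PBS group at P200, at least 108-fold lower in CTR and at least 96.3-fold lower in ELS mice.

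With LPS, 2 genes of the IGF axis rose and 1 fell in CTR mice and 1 rose and 1 fell in ELS mice, with medians of 0.38 and 0.69 (0.28 and 0.55 with genes against an empty group at their bound) against 0.00 and -0.04. The insulin receptor gene Insr fell from 32.6 ± 11.5 to 14.8 ± 1.65 CPM in CTR (-1.14, SE 0.25, adjusted p 0.000659) and from 29.6 ± 4.34 to 13.2 ± 3.23 CPM in ELS mice (-1.16, SE 0.29, adjusted p 0.00322). The binding protein gene Igfbp6 rose by 4.31 in CTR mice (adjusted p 0.000608; 4.92 without mouse 18-2 of P200-CTR-PBS) and by 4.11 in ELS mice (adjusted p 0.00364; 5.17 without mouse 20-2 of P200-ELS-PBS), to 4.27 ± 1.58 CPM in the latter.

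Pdgfa (ENSMUSG00000025856, chromosome 5, 138961758 to 138983435, minus strand) encodes the A chain of platelet-derived growth factor, which acts on oligodendrocyte precursors through Pdgfra. A promoter is shown since Pdgfa and Pdgfb moved the same way with age: RefSeq GRCm38.p6, chr5:138994895-138995194, minus strand, the second of 2 in the table, with capitals on an NF-kB match at bases 202 to 211; the other Pdgfa promoter held no match to any motif searched.
Pdgfa promoter: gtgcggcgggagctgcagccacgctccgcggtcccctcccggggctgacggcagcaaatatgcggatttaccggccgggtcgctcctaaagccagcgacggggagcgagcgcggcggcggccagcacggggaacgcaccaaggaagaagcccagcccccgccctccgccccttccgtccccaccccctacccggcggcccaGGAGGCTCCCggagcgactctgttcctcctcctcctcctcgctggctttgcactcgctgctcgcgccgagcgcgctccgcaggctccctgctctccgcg
NF-kB matches lie in 8.46% of the 32851 promoters.

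In P9-CTR mice Pdgfa stood at 3.35 ± 1.55 CPM, from 0.998 over 3.35 to 6.46, and in P9-ELS mice at 3.28 ± 1.52 CPM, from 1.13 over 2.99 to 6.18 (mean 2.78 without mice 19-2 and 19-3). P200-CTR-PBS mice had 6.83 ± 3.47 CPM, from 0.662 over 6.66 to 11.12, with a mean of 7.86 without mouse 1-1. P200-ELS-PBS mice had 7.74 ± 3.30 CPM, from 2.01 over 8.82 to 10.5. The age groups overlapped: 6 of 7 P200-CTR-PBS mice lay above the P9-CTR median, and mouse 1-1 lay below all of them. The rise with age was 1.02 (SE 0.34, adjusted p 0.0122) in CTR and 1.25 (SE 0.35, adjusted p 0.00300) in ELS mice. In CTR mice it was under 1, still passing, without any one of P9-CTR mice 51-2 (0.94), 52-1 (0.97) and 58-1 (0.97) and P200-CTR-PBS mice 5-1 (0.86, adjusted p 0.0457) and 18-2 (0.89, adjusted p 0.0402). The P9 mice carry only 5 (CTR) and 4 (ELS) nest numbers. The CTR value did not pass by limma with the nest as random effect (0.83, adjusted p 0.119) or with counts summed per nest (0.88, adjusted p 0.139; 0.000481 to 0.139 over the alternatives). The ELS value did not pass with counts summed per nest (1.12, adjusted p 0.0822; 5.38e-05 to 0.0822).

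With LPS, Pdgfa stood at 11.8 ± 4.07 CPM in CTR mice, from 6.48 over 11.204 to 16.7, and the 5 ELS mice had 6.49, 14.0, 14.4, 17.24 and 20.4 CPM (14.5 ± 5.18). These means were above those of the PBS groups, with overlap, and the differences of 0.79 (SE 0.39, adjusted p 0.182) and 0.91 (SE 0.44, adjusted p 0.189) did not pass by the quasi-likelihood test. The CTR difference passed by limma with the nest as random effect (1.05, adjusted p 0.0467, in a range of 0.0467 to 0.320 over the alternatives). It did not pass with counts summed per nest or with the nest number as block. In rising order of means came P9-ELS, P9-CTR, then the PBS groups (CTR before ELS), then the LPS groups (CTR before ELS), and within each of the 3 pairs of early-life condition the neighbours did not differ beyond their spread. On the opposite strand, the noncoding gene 6330403L08Rik shares 2552 exon bases with Pdgfa, 37.7% of its exon length. The strand setting of the counting is not stated. Whether reads of this stretch were counted for Pdgfa, for the noncoding gene or for neither is therefore not known. Counted as its own gene, 6330403L08Rik had 0.490 to 1.48 CPM over the groups.

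Pdgfb (ENSMUSG00000000489, chromosome 15, 79880009 to 79899181, minus strand) encodes the B chain, which binds Pdgfrb on pericytes. P9-CTR mice had 14.4 ± 1.98 CPM, from 11.5 over 14.3 to 18.09, and P9-ELS mice 13.7 ± 4.58 CPM, from 6.09 over 14.0 to 22.5 (14.6 without mice 19-2 and 19-3). P200-CTR-PBS mice had 36.9 ± 14.8 CPM, from 4.38 over 43.6 to 47.3, and a mean of 42.3 without mouse 1-1. P200-ELS-PBS mice had 30.6 ± 7.52 CPM, from 19.11 over 30.7 to 42.3. Mouse 1-1 lay below all P9-CTR mice and the other 6 above all of them, and 5 of 6 ELS mice lay above all P9-ELS mice. The rise with age was 1.36 (SE 0.22, adjusted p 1.94e-06) in CTR and 1.15 (SE 0.23, adjusted p 4.98e-05) in ELS mice.

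After LPS, Pdgfb stood at 64.5 ± 15.6 CPM in CTR mice, from 43.4 over 62.4 to 81.6, and the 5 ELS mice had 53.8, 57.7, 61.0, 63.6 and 81.9 CPM (63.6 ± 10.9). In CTR mice 5 of 7 lay above every PBS mouse, and in ELS mice all 5 did. The rise was 0.81 (SE 0.26, adjusted p 0.0249) in CTR and 1.06 (SE 0.29, adjusted p 0.00937) in ELS mice. In CTR mice it missed the threshold without mouse 1-2 (0.74, adjusted p 0.0550) or mouse 15-2 (0.74, adjusted p 0.0550) of P200-CTR-LPS, with only the groups compared (0.81, adjusted p 0.123) and with counts summed per nest (0.92, adjusted p 0.0612; 0.00137 to 0.123 over the alternatives). The ELS value was 0.95 and still passed without mouse 4-1 of P200-ELS-PBS (adjusted p 0.0317) or 11-2 of P200-ELS-LPS (adjusted p 0.0323). In rising order of means the groups ran from P9 over PBS to LPS, and at each step ELS and CTR mice did not differ beyond their spread.

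Of the 4 other genes of the PDGF axis 3 were tested, and 1 fell with age in each early-life condition (median -0.99 in CTR and -1.95 in ELS mice against -0.09 and -0.01). It was the receptor Pdgfra, with 4.70 ± 2.92 CPM at P9 in CTR mice and 2.65 ± 1.89 CPM in ELS mice. At P200 it stood at 0.0713 ± 0.189 CPM in CTR mice (-6.25, SE 1.04, adjusted p 2.48e-06; -9.67 without mouse 15-1) and at 0.00593 CPM, 1 count, in ELS mice (adjusted p 2.17e-06). The other receptor, Pdgfrb, was at most 0.410 CPM in any group. With LPS 0 of 3 passed by edgeR, DESeq2, limma or the likelihood-ratio test in either early-life condition, and 0 had an unadjusted p under 0.05.

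Vegfa (ENSMUSG00000023951, chromosome 17, 46327919 to 46343309, minus strand) encodes the main angiogenic factor of the VEGF family and was close to undetected. It had 11 counts over the 12 P9-CTR mice (0.0379 CPM) and 12 over the 13 P9-ELS mice (0.0445 CPM, and 0.0434 CPM without mice 19-2 and 19-3), with 4 mice of each above 0 and highest values of 0.178 and 0.307 CPM. At P200 it had 0 counts in P200-CTR-PBS, 1 in P200-ELS-PBS, 2 in P200-CTR-LPS and 0 in P200-ELS-LPS mice. Most mice of each group had no count, so that the groups overlapped at 0. In CTR mice it was at least 2.02-fold lower at P200 than at P9 by the floor, with a lower counting limit of 1.38-fold and an exact permutation p of 0.255. The other 6 comparisons of its CPM gave permutation p of 0.369 to 1.00. With no filter on low counts it passed the age comparison in CTR mice (adjusted p 0.0445, and 0.0370 with a filter of 1 count in more than 2 mice) but not in ELS mice, and the interaction had an adjusted p of 0.945 and 0.749. The gene Gm65021 shares 64 exon bases on the opposite strand.

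Vegfb (ENSMUSG00000024962, chromosome 19, 6958447 to 6965127, minus strand) encodes a ligand of Flt1. P9-CTR mice had 6.21 ± 1.86 CPM, from 4.201 over 6.16 to 11.0, and P9-ELS mice 7.10 ± 3.27 CPM, from 4.02 over 5.61 to 15.8 (5.96 without mice 19-2 and 19-3). P200-CTR-PBS mice had 3.52 ± 0.973 CPM, from 2.49 over 3.57 to 5.204 (3.40 without mouse 1-1), and P200-ELS-PBS mice 3.05 ± 1.16 CPM, from 1.04 over 3.50 to 4.14. The ranges of P9 and P200 mice overlapped, and the highest P9-ELS values were those of mice 19-2 and 19-3. The fall with age was -0.82 (SE 0.27, adjusted p 0.0123) in CTR and -1.22 (SE 0.29, adjusted p 0.000602) in ELS mice. The CTR value did not pass with counts summed per nest (-0.78, adjusted p 0.0863; 0.00371 to 0.0863 over the alternatives). With LPS the gene stood at 3.23 ± 1.18 CPM in CTR mice, and the 5 ELS mice had 2.24, 2.29, 2.40, 3.22 and 4.39 CPM (2.91 ± 0.920). The LPS differences of -0.12 and -0.06 had adjusted p of 0.860 and 0.947. Both P9 groups were above all 4 P200 groups in their means, and neighbours within P9 and within P200 did not differ beyond their spread.

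Of the 8 other genes of the VEGF axis 4 were tested. With age 2 fell in CTR mice (median -0.59 against -0.09) and 1 rose and 1 fell in ELS mice (-0.29 against -0.01), and with LPS 2 rose and 1 fell in CTR (0.81 against 0.00) and 1 rose and 1 fell in ELS mice (0.50 against -0.04). The shared receptor Flt1 was at 0.244 to 0.470 CPM in the 6 groups. Kdr, the signalling receptor of Vegfa, rose with LPS from 4.99 ± 2.91 to 24.3 ± 9.92 CPM in CTR mice (2.28, SE 0.67, adjusted p 0.0135); in ELS mice the difference was 1.45 (adjusted p 0.206; it passed in 1 of 10 alternatives, and ranged from 0.00721 to 0.376 over these and single mice left out) and the interaction -0.83 (adjusted p 0.975). The coreceptor Nrp1 fell with age from 301 ± 49.3 to 152 ± 13.0 CPM in CTR mice (-0.99, SE 0.14, adjusted p 7.48e-08), and in ELS mice by -1.10 (adjusted p 2.09e-08). Nrp2 rose with LPS from 32.2 ± 9.23 to 109 ± 49.0 CPM in CTR mice (1.76, SE 0.23, adjusted p 3.81e-08) and from 43.7 ± 12.2 to 107 ± 47.6 CPM in ELS mice (1.29, SE 0.25, adjusted p 0.000181).

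Since Vegfa is a known target of hypoxia-inducible factors, 14 genes linked to these factors were read beside it. With age 3 rose and 4 fell in CTR mice (median -0.35 against -0.09 over all genes) and 3 rose and 3 fell in ELS mice (0.20, or 0.26 with genes at their bound, against -0.01). With LPS 4 rose and 2 fell in CTR mice (0.12 against 0.00) and 4 rose in ELS mice (0.07 against -0.04). Slc2a1, a glucose transporter, rose with LPS from 122 ± 13.7 to 575 ± 163 CPM in CTR (2.24, adjusted p 1.49e-07) and from 115 ± 13.9 to 626 ± 314 CPM in ELS mice (2.45, adjusted p 3.13e-07). Pfkfb3, a glycolytic regulator, rose by 2.36 (adjusted p 6.32e-09) and 2.54 (adjusted p 2.11e-08). Adm had no count in either PBS group and was at least 184-fold higher with LPS in CTR and at least 447-fold higher in ELS mice; its fitted value in ELS mice went from 10.72 to 9.38 without mouse 20-1. Among the genes that fell with LPS in CTR mice was P4ha1 (-0.45, adjusted p 0.00969), which did not pass with counts summed per nest (-0.41, adjusted p 0.0544). Slc2a1, Pfkfb3 and Adm, named for the largest changes of the list, rose in libraries in which Vegfa had at most 2 counts per group. A link of these genes to the level of Vegfa was not tested.

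Hbegf (ENSMUSG00000024486, chromosome 18, 36637980 to 36649677, minus strand) encodes a heparin-binding ligand of Egfr and Erbb4 that is shed from the cell surface by proteases. P9-CTR mice had 3.81 ± 1.5 CPM, from 1.03 over 3.82 to 5.78, and P9-ELS mice 3.88 ± 1.27 CPM, from 1.68 over 3.91 to 6.40 (4.08 without mice 19-2 and 19-3). P200-CTR-PBS mice had 3.91 ± 2.23 CPM, from 0 over 4.48 to 6.22 (4.56 without mouse 1-1), and P200-ELS-PBS mice 4.51 ± 1.43 CPM, from 1.96 over 4.78 to 5.84. These 4 groups overlapped almost fully, and the age differences of 0.03 (SE 0.36, adjusted p 0.952) and 0.21 (SE 0.37, adjusted p 0.676) did not pass. With LPS the CTR mice had 21.5 ± 6.85 CPM, from 10.4 over 22.5 to 29.8, and the 5 ELS mice 14.2, 26.6, 27.2, 29.7 and 37.5 CPM (27.0 ± 8.38). Every mouse given LPS, 7 of 7 CTR and 5 of 5 ELS, lay above every PBS mouse, and the ELS and CTR mice given LPS overlapped. The rise was 2.46 (SE 0.42, adjusted p 1.24e-05) in CTR and 2.58 (SE 0.47, adjusted p 4.36e-05) in ELS mice, with an interaction of 0.12 (adjusted p 1.00). It ranged from 2.24 to 2.61 in CTR and from 2.43 to 2.74 in ELS mice when single mice were left out. The gene Gm41698 shares 831 exon bases on the opposite strand (16.3%) and is not among the genes counted.

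Hbegf and Pdgfb, the members that rose with LPS in both early-life conditions, did so in libraries in which the early response and LPS lists were also high, and Pdgfb had already been higher at P200 than at P9. The early response genes answer to LPS as well as to isolation; their part in the rise of Hbegf and Pdgfb was not tested. Over the 50 mice the log2 CPM of Hbegf was most like that of Tnip2 (Pearson r 0.909), Gbp2 (0.887) and Mlxip (0.877), and with group means removed that of Ankrd27 (0.858, and 0.509 without mouse 1-1). Pdgfb was most like Lbh (0.902), and Rwdd3 with group means removed (0.846, and 0.656 without mouse 1-1), and Pdgfa was most like Sp110 in both readings (0.834 and 0.715, the second 0.582 without mouse 1-1). With group means removed, r was 0.640 for Pdgfa with Hbegf, 0.617 for Pdgfb with Hbegf and 0.398 for Pdgfa with Pdgfb. Without mouse 1-1, which was low in all 3 genes, these values were 0.368, -0.0359 and -0.103, so that the last 2 rested on this mouse.

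Of the 16 other genes of the EGF axis 10 were tested. With age 3 rose and 3 fell in CTR mice (median -0.08 against -0.09) and 3 rose and 2 fell in ELS mice (0.29 against -0.01). With LPS 0 of 10 passed in CTR mice by edgeR, DESeq2, limma or the likelihood-ratio test (2 at an unadjusted p under 0.05; median -0.02 against 0.00), and 1 rose and 1 fell in ELS mice (-0.20, or -0.09 with genes at their bound, against -0.04). The gene that rose was Nrg1 (at least 7.46-fold, adjusted p 0.0495), and it missed the threshold in 4 of 7 alternatives, without any one of the 6 P200-ELS-PBS mice, and without P200-ELS-LPS mouse 2-2 (3.94 against a fitted 4.90), 17-3 or 20-1 (adjusted p 0.0314 to 0.237 over all of these). The gene that fell was Nrg4 (-0.63, adjusted p 0.0341), and it missed the threshold in 3 of 10 alternatives and without mouse 2-2 or 20-1 of P200-ELS-LPS or mouse 17-2 or 20-2 of P200-ELS-PBS (0.00427 to 0.167). The receptor Egfr had 0.919 ± 0.597 CPM (CTR) and 1.66 ± 1.78 CPM (ELS) at P9 and at P200 had 2 counts in P200-CTR-PBS mice and none in the other 3 groups. It was at least 64.7-fold lower at P200 in ELS mice, and -5.69 in CTR mice (SE 1.03, adjusted p 2.70e-05; -7.30 without mouse 18-2). Erbb4 was at 0.555 CPM in P9-CTR mice and at most 0.250 CPM in each other group. The protease genes Adam10 (553 to 756 CPM) and Adam17 (309 to 398 CPM) and Cd9, whose product binds the Hbegf precursor, were among the abundant genes of the list. Cd9 rose with age from 1055 ± 158 to 1895 ± 238 CPM in CTR mice (0.84, SE 0.12, adjusted p 1.69e-07) and by 0.40 in ELS mice (SE 0.13, adjusted p 0.0103), with an interaction of -0.45 (adjusted p 0.384). The ELS value did not pass with only the groups compared (0.38, adjusted p 0.0602) or with counts summed per nest (0.28, adjusted p 0.154; 1.17e-06 to 0.154 over the alternatives and single mice left out).

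Bdnf (ENSMUSG00000048482, chromosome 2, 109505045 to 109557475, plus strand) encodes brain-derived neurotrophic factor, a ligand of Ntrk2. P9-CTR mice had 0.655 ± 0.643 CPM, from 0 over 0.576 to 1.84, in 209 counts, and P9-ELS mice 0.863 ± 1.201 CPM, from 0 over 0.403 to 4.05, in 267 counts (0.652 without mice 19-2 and 19-3). At P200 it was nearly absent from the counts. All 12 counts of P200-CTR-PBS mice came from mouse 5-1 (a mean of 0.0681 CPM, and 0.0794 CPM without mouse 1-1), P200-ELS-PBS mice had none, the 17 counts of P200-CTR-LPS mice came from 3 mice, 13 of them from mouse 15-2, and the 4 counts of P200-ELS-LPS mice came from mouse 20-1. All groups overlapped at or near 0, with P9 mice reaching higher.

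The difference of Bdnf with age was -3.09 (SE 1.22, adjusted p 0.0355) in CTR mice, 9.58 times in pooled CPM (5.37 to 18.8), and in ELS mice it was at least 46.2-fold lower at P200 by the floor (adjusted p 0.000629), with a lower counting limit of 37.3-fold. The CTR value was -6.83 (adjusted p 0.00116) without mouse 5-1, and did not pass without a filter on low counts (-3.07, adjusted p 0.0532; 0.00602 to 0.0532 over the alternatives). It missed the threshold, at values of -2.91 to -2.82 and adjusted p of 0.0547 to 0.0664, without any one of P9-CTR mice 17-1 and 17-2 and P200-CTR-PBS mice 1-1, 5-2, 8-1, 15-1, 18-1 and 18-2. The LPS differences did not pass. In CTR mice the value was 0.66 (adjusted p 0.810), and was 4.41 (adjusted p 0.0669) without mouse 5-1 and -0.91 (adjusted p 0.754) without mouse 15-2. In ELS mice it set 4 counts, all of mouse 20-1, against none (adjusted p 0.209), with a lower counting limit of 1.23-fold. After PBS, Bdnf was at least 3.93-fold lower in ELS than in CTR mice by the floor, with a lower counting limit of 2.73-fold (adjusted p 0.387), and the fitted difference was 0 without mouse 5-1. The interaction with age, -4.14 as fitted against the empty group (adjusted p 0.412), was -0.39 without mouse 5-1. In order, P9-ELS and P9-CTR led without differing beyond their spread, and the 4 P200 groups lay within a mean of 0 to 0.115 CPM. The gene Gm45346 shares 1028 exon bases on the opposite strand (13.5%) and was at most 0.0908 CPM in any group. Markers of neurons also fell with age, in 8 of 8 genes in CTR and 6 of 8 in ELS mice, and their part in the level of Bdnf was not tested.

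Of the 12 other genes of the neurotrophin axis 7 were tested. With age 2 rose and 4 fell in each early-life condition, with medians of -4.82 and -4.40 against -0.09 and -0.01. With LPS 1 fell in CTR mice (median -0.01, or 0.19 with genes at their bound, against 0.00), and in ELS mice 0 passed by edgeR's quasi-likelihood test (3 genes at an unadjusted p under 0.05, and 1 each by DESeq2, limma and the likelihood-ratio test; median -0.04, or -0.06 with bounds, against -0.04). The receptor Ntrk2 fell with age from 15.6 ± 5.82 to 0.273 ± 0.269 CPM in CTR (-5.74, SE 0.87, adjusted p 3.97e-07) and from 9.51 ± 6.28 to 0.330 ± 0.401 CPM in ELS mice (-4.83, SE 0.89, adjusted p 1.53e-05; -5.46 without mouse 11-1). Ngfr, below the filter, was at most 0.152 CPM in any group. Furin, whose protease cleaves the precursor of Bdnf, fell with LPS from 42.3 ± 6.95 to 25.0 ± 6.19 CPM in CTR mice (-0.76, SE 0.19, adjusted p 0.00293); in ELS mice the difference was -0.56 (adjusted p 0.0761; it passed in 4 of 10 alternatives, and ranged from 0.0141 to 0.213 over these and single mice left out) and the interaction 0.19 (adjusted p 0.983).

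Grn (ENSMUSG00000034708, chromosome 11, 102321141 to 102327874, plus strand) encodes progranulin, the most abundant member per length. Its promoter is shown for that reason, from RefSeq GRCm38.p6 at chr11:102430257-102430556, plus strand, with capitals on an NF-kB match at bases 127 to 136.
Grn promoter: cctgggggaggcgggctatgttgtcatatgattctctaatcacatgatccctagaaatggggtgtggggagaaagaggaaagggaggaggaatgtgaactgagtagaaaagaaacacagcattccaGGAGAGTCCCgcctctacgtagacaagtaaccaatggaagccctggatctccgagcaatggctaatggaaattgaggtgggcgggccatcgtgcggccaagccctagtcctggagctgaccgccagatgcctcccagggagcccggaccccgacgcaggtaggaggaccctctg

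P9-CTR mice had 3280.2 ± 652 CPM of Grn, from 1771 over 3351 to 4105, and P9-ELS mice 3637 ± 1258 CPM, from 643 over 3488 to 5769 (3716 without mice 19-2 and 19-3). P200-CTR-PBS mice had 2301 ± 302 CPM, from 1854 over 2379 to 2738 (2343 without mouse 1-1), and P200-ELS-PBS mice 2427 ± 655 CPM, from 1701 over 2308 to 3354. All 7 P200-CTR-PBS mice lay below the P9-CTR median, but the ranges overlapped. The extremes of the P9-ELS group were mice 19-2 and 19-3. Mouse 9-2 of that group, with 19742 genes, was nearly as high as mouse 19-3, at 5766 CPM. The fall with age was -0.51 (SE 0.20, adjusted p 0.0295) in CTR and -0.58 (SE 0.20, adjusted p 0.0183) in ELS mice. It did not pass by limma with the nest as random effect (-0.48, adjusted p 0.0775 in CTR and -0.46, adjusted p 0.104 in ELS mice), without a filter in CTR mice (-0.50, adjusted p 0.0535) or with only the groups compared in ELS mice (-0.60, adjusted p 0.0848). The alternatives ranged from 0.00139 to 0.0775 in CTR and from 0.000460 to 0.104 in ELS mice. In CTR mice it missed the threshold without mouse 15-2 of P9-CTR (-0.46, adjusted p 0.0544) or mouse 1-1 (-0.49, adjusted p 0.0539), 15-1 (-0.47, adjusted p 0.0644) or 18-1 (-0.49, adjusted p 0.0515) of P200-CTR-PBS. In ELS mice it missed it without mouse 17-2 (-0.51, adjusted p 0.0590) or 20-2 (-0.50, adjusted p 0.0626) of P200-ELS-PBS.

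With LPS, Grn stood at 2320.4 ± 511 CPM in CTR mice, from 1753 over 2284 to 3056, and the 5 ELS mice had 2341, 2586, 2633, 2635 and 3500 CPM (2739 ± 442). The LPS and PBS mice overlapped, and the LPS differences of 0.01 (adjusted p 0.992) and 0.17 (adjusted p 0.720) did not pass. The P9 groups were above the P200 groups in their means, and no neighbours within either age differed beyond their spread. With group means removed, Grn was most like Laptm5 (Pearson r 0.968), Ctsd (0.961) and Vsir (0.960) over the 50 mice. Without mouse 19-2 of P9-ELS these values were 0.917, 0.898 and 0.898. In log2 CPM Grn was most like Arhgdia (0.946), Ptpa (0.942) and Man2b1 (0.941). The gene Fam171a2 shares 1273 exon bases with Grn on the opposite strand (32.8%) and was at most 0.117 CPM in any group, and Gm72073 shares 12.

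All 11 other genes of the progranulin axis were tested. With age 2 rose and 3 fell in CTR (median -0.17 against -0.09) and 3 rose and 3 fell in ELS mice (-0.05 against -0.01). With LPS 1 rose in CTR mice (0.11, or 0.29 with genes at their bound, against 0.00), and in ELS mice 0 passed by edgeR's quasi-likelihood test (4 genes at an unadjusted p under 0.05, 1 by limma, 1 by the likelihood-ratio test and 0 by DESeq2; median -0.09, or -0.24 with bounds, against -0.04). The receptor Sort1 stood at 61.4 ± 6.72, 54.2 ± 11.5, 84.3 ± 23.6, 84.8 ± 12.6, 83.1 ± 16.4 and 79.5 ± 16.2 CPM in the 6 groups from P9-CTR to P200-ELS-LPS. Its rise with age in CTR mice passed (0.46, adjusted p 0.00804). That rise did not pass with counts summed per nest (0.42, adjusted p 0.0764) or without mouse 8-1 of P200-CTR-PBS (0.34, adjusted p 0.0539). Psap, the gene of the lysosomal partner prosaposin, stood between 5152 and 6407 CPM, with no comparison passing by the quasi-likelihood test. Gpnmb fell with age from 16.6 ± 10.1 to 0.0687 ± 0.0791 CPM in CTR mice (-7.94, adjusted p 7.22e-09) and by -6.74 in ELS mice (adjusted p 1.43e-07; -11.77 without mouse 11-1). Mmp14, a protease that cleaves progranulin, rose with LPS from 4.03 ± 1.56 to 11.197 ± 2.42 CPM in CTR mice (1.47, SE 0.44, adjusted p 0.0161); in ELS mice the difference was 1.07 (adjusted p 0.155; it passed in 4 of 10 alternatives, and ranged from 0.00539 to 0.264 over these and single mice left out) and the interaction -0.40 (adjusted p 0.985).

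Among 20 other secreted trophic factors 13 were tested. With age 1 rose and 6 fell in CTR (median 0.08 against -0.09) and 4 rose and 6 fell in ELS mice (0.40 against -0.01), and with LPS 6 rose in CTR (0.98 against 0.00) and 3 in ELS mice (0.32 against -0.04). Spp1, the gene of osteopontin, moved in both comparisons. It fell with age from 226 ± 78.0 to 1.16 ± 1.04 CPM in CTR mice (-7.61, SE 0.59, adjusted p 1.73e-15) and by -6.91 in ELS mice (adjusted p 9.71e-14). With LPS it rose to 40.5 ± 29.6 CPM in CTR (5.13, SE 0.54, adjusted p 1.48e-10) and to 32.3 ± 18.8 CPM in ELS mice (3.84, SE 0.55, adjusted p 4.88e-07). Osm, a cytokine of the interleukin 6 family, rose with LPS from 24.3 ± 4.79 to 137 ± 23.4 CPM in CTR (2.49, SE 0.24, adjusted p 7.94e-12) and by 2.57 in ELS mice (adjusted p 1.03e-10). Hgf rose with LPS from 1.46 ± 1.36 to 8.77 ± 3.55 CPM in CTR mice (2.58, SE 0.76, adjusted p 0.0134); in ELS mice the difference was 1.87 (adjusted p 0.133; it passed in 2 of 10 alternatives, and ranged from 0.0180 to 0.238 over these and single mice left out) and the interaction -0.71 (adjusted p 0.983).

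Of the 71 tested genes of these 8 lists, 41 passed with age in CTR, 41 with age in ELS, 20 with LPS in CTR and 13 with LPS in ELS mice, where 44.1%, 42.2%, 14.9% and 12.3% of all genes passed. Of these, 36, 30, 15 and 9 passed in every alternative that tested them and with any single mouse left out.

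Between ELS and CTR mice, 0 of the 71 genes passed by the quasi-likelihood test at P9 (3 genes with p under 0.05 before adjustment, 0 by the other tools), after PBS (6 unadjusted, 2 each by DESeq2 and the likelihood-ratio test, which passed 1.06% and 1.29% of all genes, 0 by limma) or after LPS (3 unadjusted, 0 by the other tools). The interactions passed for 0 of 71 with 5 (age) and 3 (LPS) at an unadjusted p under 0.05 and 0 by the other tools. Nearest to the threshold after PBS was Gas6, a ligand of TAM receptors, chosen after its values were seen. It had 78.9 ± 17.0 CPM in CTR and 177 ± 55.5 CPM in ELS mice (1.16, SE 0.28, adjusted p 0.0564). It passed in 4 of 9 alternatives (likelihood-ratio test, DESeq2, counts summed per nest, without the 3 mice of few genes), with adjusted p of 0.00885 to 0.193 over these and single mice left out. It also passed without mouse 15-1 of P200-CTR-PBS (1.23, adjusted p 0.0329) or mouse 17-2 of P200-ELS-PBS (1.31, adjusted p 0.0315).

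**Figure D5:**
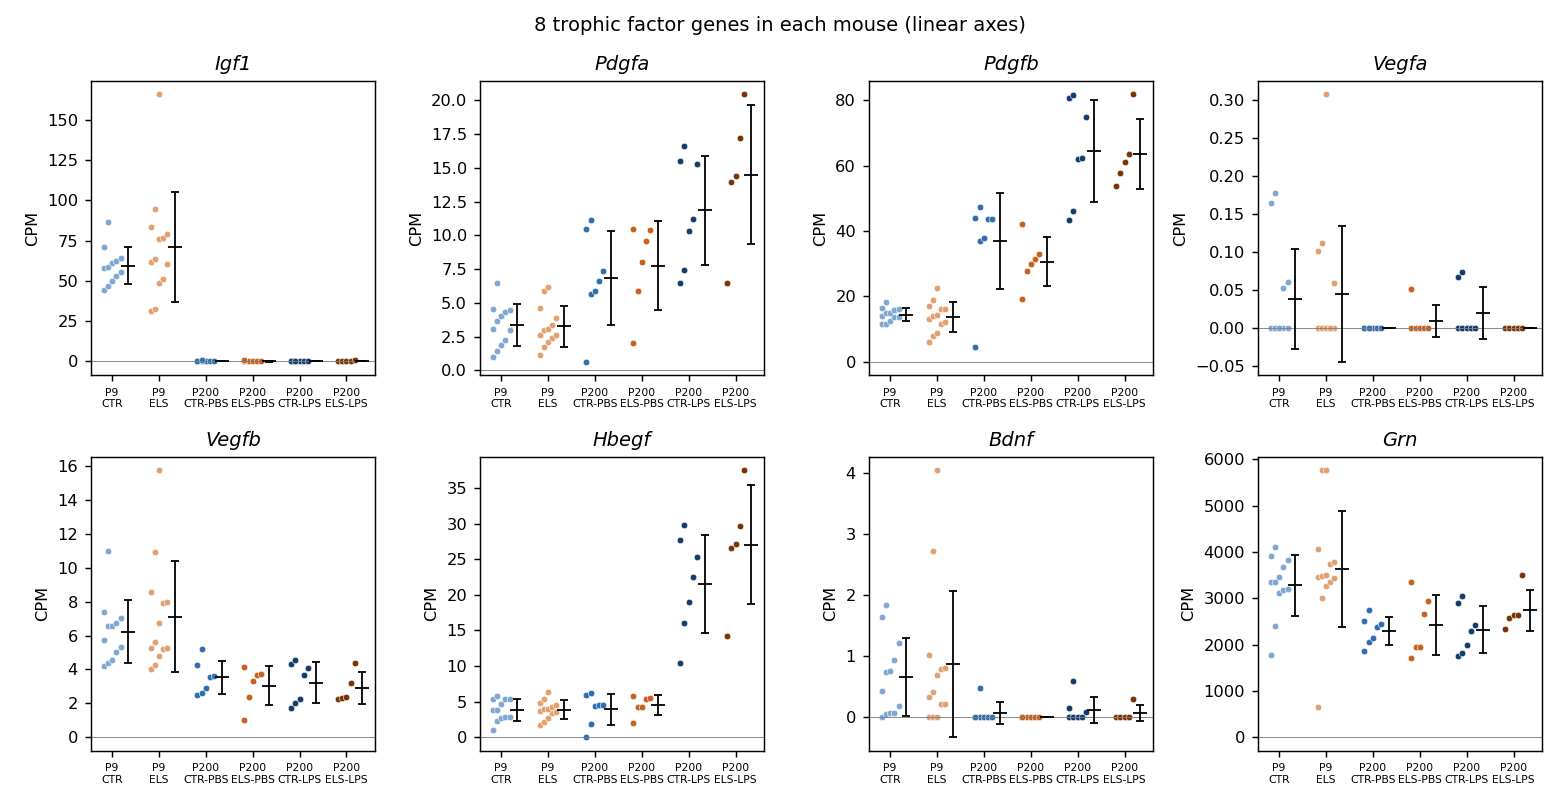
CPM of each of the 8 genes (vertical axis, a scale of its own in each panel) in each mouse by group, with the mean and SD. Hbegf is at 10.4 CPM or more in every mouse given LPS and at 6.40 CPM or less in every other mouse, and Vegfa and Bdnf are at or near 0 in most P200 mice.

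In promoter sequence, 14 promoters of 6 of the 8 genes were read from the RefSeq table. None was found for Pdgfb. Promoters on chromosome 18, where Hbegf lies, were left out for the members, so that none was read for Hbegf. The shares over all promoters were taken without this limit. Both strands were searched for NF-kB (by name, 4 of 14 with a match, 8.46% of all 32851), the hypoxia response core ACGTG (3 of 14, 19.6% of all), the AP-1 motif TGANTCA (2 of 14, 7.81%), the cAMP response element (0 of 14, 1.79%), the E-box CACGTG of lysosomal genes (0 of 14, 7.15%) and the TATA box TATAAA (0 of 14, 13.6%). The letters ACGTG lie within CACGTG. For AP-1 the pattern took any base at N, and each match in these promoters read TGAATCA. The Igf1, Pdgfa and Grn promoters printed with these genes each held 1 match. The 8 genes lie on 8 chromosomes, and their exon length ran from 3255 bases (Vegfb) to 10234 bases (Igf1).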

How the data were processed

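RNA of sorted hippocampal microglia was sequenced in 50 mice, 1 library each, in 6 groups. The deposited counts per gene were made by the authors with bcl2fastq 2.20, cutadapt 2.10, mapping to GRCm39 and HTSeq 0.11.0, and are not normalized. A gene was tested if over 2 mice had 1 CPM of it or more (16696 of 53700), in 1 model of 6 group means with edgeR 4.0.16 (R 4.3.3), TMM scaling and the quasi-likelihood F-test. Alternatives used edgeR's likelihood-ratio test, DESeq2 1.42.0, limma 3.58.1, other filters and scaling, other sets of mice, and models with the nest number. Tables were made with Python 3.11.15, numpy 2.4.6, pandas 2.3.3, scipy 1.17.1 and matplotlib 3.10.9. Log2 CPM used a prior count of 2. Vegfa, below the filter, was compared by permuting mice. Members, marker lists and pathway lists were chosen with earlier results of these data known. Up to 3 genes per pathway list and comparison, those with the largest log2 fold change in size that passed, were drawn up for naming. The report describes only part of these, picked after values were seen, and the receptors of each ligand; genes such as Sort1, Adam10, Adam17, Cd9, Psap, Insr, Furin and Gas6 given beside these were in part chosen after their values were seen.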

Additional observations from a re-analysis of the deposited data

Results flagged for a closer look

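In groups of 4 to 10 mice, the highest or lowest mouse was compared with its nearest neighbour, relative to the range of the group. In 7 of 29 groups 1 mouse lay apart; chance flags about 1 in 20 groups. That rate is not one for groups with all other mice at 0, which were 3 of the 7 (Vegfa, and Bdnf in 2 groups): there any mouse above 0 lies apart. The 7 of 29 was therefore not read against that rate. Igf1 in P200-ELS-PBS mouse 4-1 was 0.641 CPM, with the next at 0.169. Pdgfb in P200-CTR-PBS mouse 1-1 was 4.38 CPM, with the next at 37.0; this mouse had few genes with a count. Vegfa in P200-ELS-PBS mouse 11-1 was 0.0517 CPM, 1 count, with the others at 0. Bdnf stood at 0.477 CPM in P200-CTR-PBS mouse 5-1 (others 0), at 0.585 CPM in P200-CTR-LPS mouse 15-2 (next 0.146) and at 0.289 CPM in P200-ELS-LPS mouse 20-1 (others 0). Grn in P200-ELS-LPS mouse 11-2 was 3499.8 CPM, with the next at 2635. Of 14 interactions tested by edgeR for the members, 0 passed, with 2 at an unadjusted p under 0.05 (Igf1 and Bdnf); the likelihood-ratio test passed 1 (Igf1), and DESeq2 and limma 0.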

How the results depend on the processing

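Over 10 alternatives other than leaving out single mice, 535 log2 fold changes of the tested members kept direction and side of the threshold, 21 changed sign, 13 lost and 3 gained an adjusted p under 0.05. Where no value shows it, the cause was not tested.

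Values that changed sign passed in neither reading. Without the 3 mice with the fewest genes they were Pdgfb 0.0184, Vegfb -0.0573 and Bdnf -0.0141 for ELS at P9, Pdgfa -0.0239 and Hbegf -0.0162 for ELS after PBS, Grn -0.0141 for LPS in CTR and Hbegf -0.10 for the age interaction. With only the groups compared, Pdgfb for ELS after LPS was 0.0033. With limma and the nest as random effect they were Hbegf -0.76 (age, CTR), Grn -0.0077 (LPS, CTR), Vegfb 0.13 (LPS, ELS), Pdgfb 0.0317 and Grn 0.0203 (age interaction), and Pdgfa -0.11 and Hbegf -0.77 (LPS interaction). With counts summed per nest they were Hbegf -0.16 (age, CTR), Vegfb 0.0248 (LPS, ELS) and Grn 0.0602 (age interaction).

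With the nest number as replicate block, Grn was -0.0140 (LPS, CTR), Vegfb 0.12 (LPS, ELS) and Hbegf -0.0549 (LPS interaction), and 2, 2 and 0 members passed. Over 15 pairs of a PBS and an LPS adult of the same number, correlations ran from -0.0419 to 0.102. Only that of mice 8-1 and 8-2 was over 0.1. Pairs within a group, P9 mice among them, were not read singly. The consensus correlation of mice that share a number was 0.0778.

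The number of members passing became 1 for ELS after LPS and 1 for the LPS interaction with the likelihood-ratio test (Igf1, adjusted p 0.0488 and 0.0219; over the alternatives 0.0488 to 1.00 and 0.0219 to 0.776). For LPS in CTR it became 1 (Hbegf) with only the groups compared and 1 with nest sums. Igf1 was below the filter, and so not tested, for LPS with only the groups compared and in the replicate block.

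Calls lost, with the range of adjusted p over the alternatives, were as follows. Age in CTR: Pdgfa with limma (0.83, p 0.119) and nest sums (0.88, p 0.139; range 0.000481 to 0.139), Vegfb with nest sums (-0.78, p 0.0863; 0.00371 to 0.0863), Bdnf without a filter (-3.07, p 0.0532; 0.00602 to 0.0532), and Grn without a filter (-0.50, p 0.0535) and with limma (-0.48, p 0.0775; 0.00139 to 0.0775). Age in ELS: Pdgfa with nest sums (1.12, p 0.0822; 5.38e-05 to 0.0822) and Grn with only the groups compared (-0.60, p 0.0848) and limma (-0.46, p 0.104; 0.000460 to 0.104). LPS in CTR: Igf1 with limma (-1.85, p 0.313) and nest sums (-3.21, p 0.0523; 0.000262 to 0.313) and Pdgfb with only the groups compared (0.81, p 0.123) and nest sums (0.92, p 0.0612; 0.00137 to 0.123). Pdgfa gained a call for LPS in CTR with limma and the nest as random effect (1.05, p 0.0467; 0.0467 to 0.320), but not with nest sums (0.78, p 0.305) or in the replicate block (0.87, p 0.320). Hbegf passed with LPS under each of these alternatives, from 2.24 to 3.32 in CTR and from 2.55 to 2.61 in ELS mice.

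Leaving out single mice changed the sign or the call within these ranges. ELS at P9: Pdgfa -0.16 to 0.0881, Hbegf -0.0583 to 0.10, Bdnf -0.12 to 0.66, Vegfa difference in CPM -0.0152 to 0.0194. ELS after PBS: Igf1 -2.21 to 0.0565, Pdgfa -0.0234 to 0.38, Hbegf -0.0156 to 0.36, Bdnf -3.96 to 0, Grn -0.0376 to 0.16. ELS after LPS: Pdgfb -0.13 to 0.0450, Bdnf -4.42 to 0.53. Age in CTR: Hbegf -0.12 to 0.26, Bdnf -6.83 to -2.82, Grn -0.56 to -0.46. Age in ELS: Grn -0.70 to -0.50. LPS in CTR: Igf1 -4.16 to -2.50, Pdgfb 0.61 to 0.88, Bdnf -0.91 to 4.41, Grn -0.0657 to 0.0703. LPS in ELS: Vegfb -0.26 to 0.0470, Bdnf 0 to 3.70. Age interaction: Hbegf -0.0426 to 0.33, Grn -0.19 to 0.0120. LPS interaction: Pdgfa -0.0858 to 0.31, Vegfb -0.14 to 0.17, Hbegf -0.0317 to 0.34, Bdnf -1.03 to 4.28. The number passing ran from 4 to 6 for age in CTR, 5 to 6 for age in ELS and 2 to 3 for LPS in CTR.

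Vegfa, and Igf1 and Bdnf at P200, had at most 38 counts per group. The groups of 5 to 7 adults, the differences between the ages in Percoll treatment, injection and cohort, and the unstated strand setting limit what can be read.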
